A study of Mus musculus with 12 samples.

Results

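Ros1, Ovch2, Ptpn6 and Nell2 make up a signalling route from testis to epididymis, known as a lumicrine route because the signal travels through the lumen of the duct. They are 4 of the 55536 genes in the deposited count tables, taken by name as the ligand, the receptor, its output and its phosphatase, and each matched a single gene identifier of GENCODE mouse release 21. The study compared segments 1, 2 and 3 of the epididymis of wild-type mice after efferent duct ligation with the same segments of non-ligated control mice. Each of the 6 groups held 2 libraries, sequenced in batches 3017 and 3097, and every library was a pool of 2 mice. In ligated tissue a suture closed the efferent ducts just before the caput, so testicular fluid and sperm no longer entered. The sources used here do not give the time between ligation and sampling, the age of the mice, or whether several segments came from the same mice. P-values thus rest on how pools varied, and mouse-to-mouse variation was not measured.

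NELL2 is a secreted protein made by germ cells of the testis. It travels down the lumen and activates ROS1, a receptor tyrosine kinase on the principal cells of segment 1, the initial segment. ROS1 activity lets this segment differentiate and secrete the protease OVCH2, which acts on the sperm membrane protein ADAM3 and is needed for male fertility in mice. PTPN6, also called SHP-1, is a cytoplasmic tyrosine phosphatase that restrains ROS1 in this epithelium and is abundant in blood cells, where it damps receptor signalling.

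All 4 genes lie on the minus strand of GRCm38. Ros1 (ENSMUSG00000019893) spans chromosome 10, 52045721 to 52195244, with 7776 exonic bases. Ovch2 (ENSMUSG00000048236) spans chromosome 7, 107781544 to 107801208, with 1953 exonic bases. Ptpn6 (ENSMUSG00000004266) spans chromosome 6, 124720707 to 124738714, with 2802 exonic bases. Nell2 (ENSMUSG00000022454) spans chromosome 15, 95075230 to 95528559, with 4670 exonic bases. Among the overlapping genes only the antisense gene Gm20531 shares exonic sequence with a member. It shares 195 bases with Ptpn6 and had 472 counts over the 12 libraries, and without a stated strand setting its reads and those of Ptpn6 cannot be told apart there.

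The promoters of the receptor, its output and its phosphatase are shown because these genes are compared below for how they respond together. RefSeq (GRCm38.p6) gave a promoter for 3 of the 4 genes, covering 250 bases before the start site and 50 from it on, at chr10:52195195-52195494 for Ros1, chr7:107801130-107801429 for Ovch2 and chr6:124738660-124738959 for Ptpn6, all read from the minus strand. Capitals mark the matches to 4 motifs searched on both strands.
Ros1: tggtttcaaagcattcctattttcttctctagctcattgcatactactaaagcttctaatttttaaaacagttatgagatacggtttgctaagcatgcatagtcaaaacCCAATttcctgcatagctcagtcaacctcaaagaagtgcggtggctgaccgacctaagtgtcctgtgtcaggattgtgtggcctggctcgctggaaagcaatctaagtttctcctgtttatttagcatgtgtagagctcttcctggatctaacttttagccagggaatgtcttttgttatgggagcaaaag
Ovch2: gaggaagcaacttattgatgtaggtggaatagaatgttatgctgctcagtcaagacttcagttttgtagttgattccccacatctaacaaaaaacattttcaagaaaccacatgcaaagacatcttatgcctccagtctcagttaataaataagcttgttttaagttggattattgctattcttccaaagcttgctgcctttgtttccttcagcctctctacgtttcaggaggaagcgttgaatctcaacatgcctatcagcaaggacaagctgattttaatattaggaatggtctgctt
Ptpn6: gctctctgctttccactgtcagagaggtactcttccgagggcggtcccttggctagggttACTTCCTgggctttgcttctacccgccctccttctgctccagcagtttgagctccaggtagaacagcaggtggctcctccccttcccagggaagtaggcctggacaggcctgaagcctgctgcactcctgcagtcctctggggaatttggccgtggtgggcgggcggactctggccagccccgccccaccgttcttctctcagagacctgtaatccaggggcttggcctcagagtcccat
The motifs were the ETS sites CCGGAAG and AGGAAGT, which ERK-induced factors such as ETV4 and ETV5 can bind, the TATA box TATAAA and the CCAAT box CCAAT. The Ros1 window held a CCAAT box and the Ptpn6 window an AGGAAGT site on the opposite strand (ACTTCCT), whereas the Ovch2 window held none of the 4. Among 27025 RefSeq promoters of the same length, 37.9% held the CCAAT box, 9.57% AGGAAGT, 9.12% CCGGAAG and 14.2% the TATA box. The windows also differed in base composition, with a GC content of 41.7% for Ros1, 38.3% for Ovch2 and 61.7% for Ptpn6.

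Libraries held 30485275 to 42313728 counts, so that 3 counts were worth 0.0709 to 0.0984 CPM, the unit of counts scaled to a common library size. Levels below are CPM after TMM normalization, which allows for differences in RNA composition. Epithelial markers were present throughout, and Epcam averaged 350 to 460 CPM over the 6 groups. The control libraries of segment 2 stood apart from each other in genes of segment 1. Of 1029 genes at least 4-fold higher in control segment 1 than in control segment 3, 840 were higher in the segment 2 control library of batch 3017 than in that of batch 3097, with a median log2 ratio of 0.50 against -0.0016 over all genes tested. Ros1 was 1.83 times and Ovch2 2.65 times as high in the library of batch 3017, while Ptpn6 was 1.07 times as high. Several results for Ros1 and Ovch2 that involve control segment 2 are therefore also given without 1 of its libraries.

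The receptor fell in segment 1 after ligation. Ros1 had 149 and 180 CPM in ligated segment 1, against 698 and 722 CPM in control segment 1. Both ligated libraries lay far below both control libraries, and ligated segment 1 held the lowest mean of the 6 groups. The log2 fold change was -2.11 ± 0.25 (SE; edgeR quasi-likelihood test, adjusted p = 3.4e-04), and it was -2.23 within batch 3017 and -2.0 within batch 3097. In this comparison 48.7% of all genes tested were called at an adjusted p under 0.05, 24.4% lower and 24.4% higher, so a call alone sets a gene little apart. By size, the Ros1 change was rank 1111 from the lowest of 19213 genes. In bulk tissue, fewer cells of a type and less RNA per cell cannot be told apart.

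In segments 2 and 3 the receptor did not pass the test. Ros1 had 193 and 171 CPM in ligated segment 2, against 394 and 215 CPM in control segment 2. Every ligated library was below every control library, but the controls differed from each other by more than the lower control differed from either ligated library. The log2 fold change was -0.73 ± 0.24 (95% interval -1.29 to -0.17, adjusted p = 0.098 in edgeR), where 9.86% of genes were called, 7% lower and 2.87% higher. Under scaling by library totals that balance turned, with 1071 genes called lower and 1598 higher. Without the control library of batch 3017 the Ros1 value was -0.22 (adjusted p = 0.53), and without that of batch 3097 it was -1.11 (4.7e-04). Ros1 had 264 and 234 CPM in ligated segment 3, against 228 and 252 CPM in control segment 3. These groups overlapped, and the log2 fold change was 0.05 ± 0.24 (95% interval -0.51 to 0.60, edgeR adjusted p = 0.95), where 1.72% of genes were called, 1.41% lower and 0.312% higher.

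**Figure D1:**
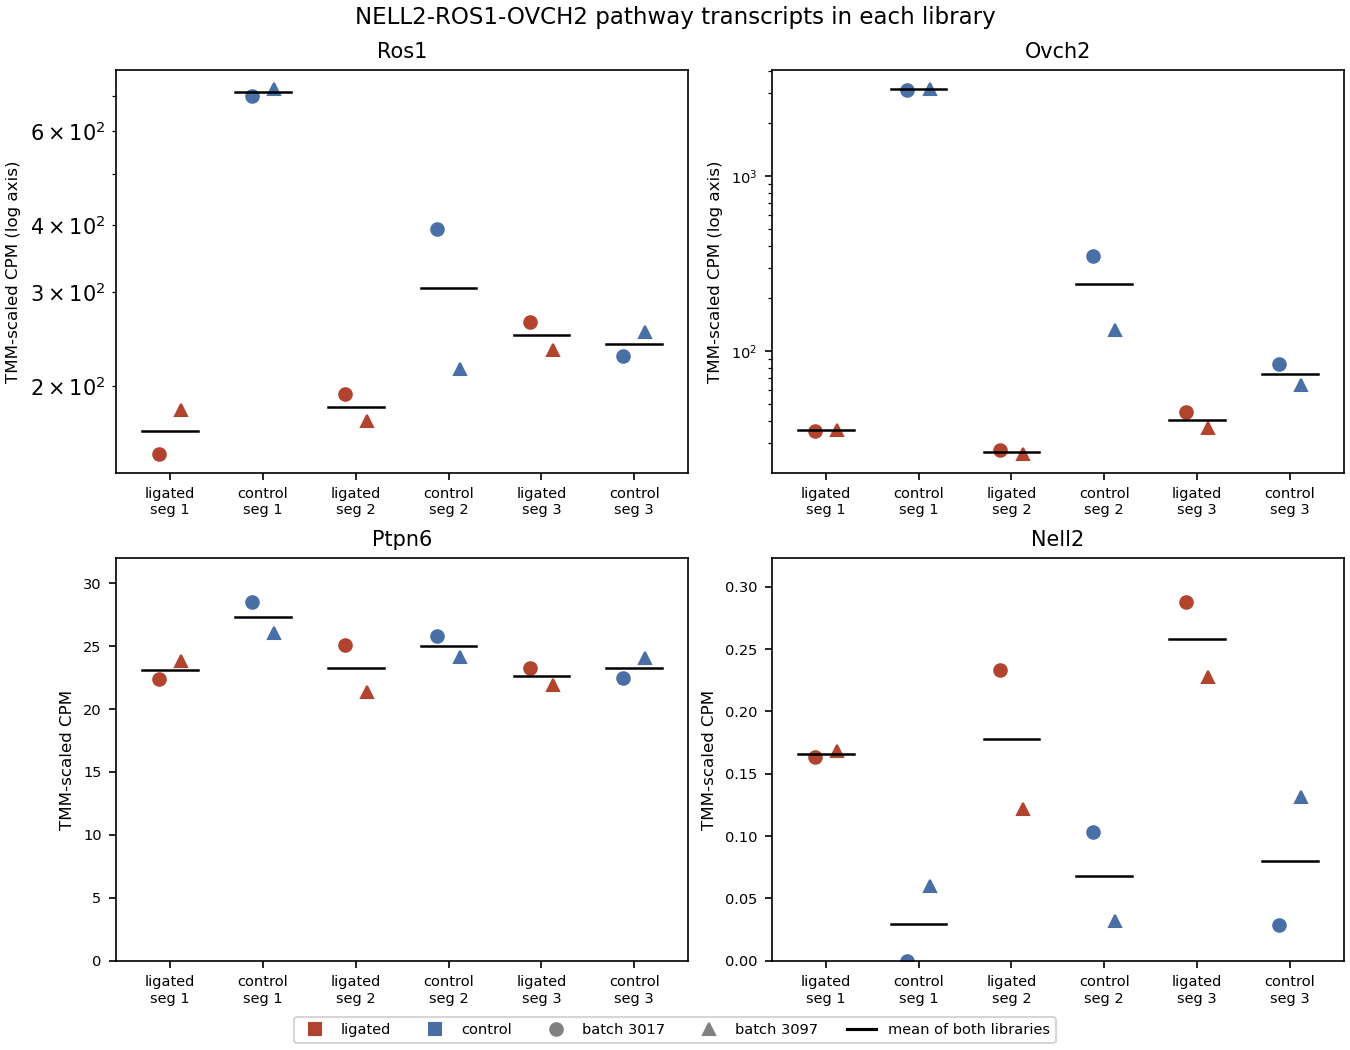
TMM-scaled CPM of Ros1, Ovch2, Ptpn6 and Nell2 in each of the 12 libraries, by group, with a log axis for Ros1 and Ovch2 and a linear axis from 0 for Ptpn6 and Nell2. Circles are batch 3017, triangles batch 3097 and lines the mean of both libraries. Ros1 and Ovch2 stand out in control segment 1, Ptpn6 stays between 21.4 and 28.5 CPM, and Nell2 is at most 0.288 CPM.

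The output of the pathway fell in segment 1 as well. Ovch2, the secreted protease, had 34.9 and 35.5 CPM in ligated segment 1, against 3113 and 3169 CPM in control segment 1. Its libraries within either group were nearly alike and the groups lay far apart. The log2 fold change was -6.48 ± 0.41 (edgeR adjusted p = 4.1e-05), rank 200 from the lowest of 19213 genes, and it was -6.46 within each batch. Per exonic length, Ovch2 was rank 2477 among all genes in ligated segment 1 and rank 31 in control segment 1.

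Ovch2 also fell in segment 2. It had 27.4 and 25.7 CPM in ligated segment 2, against 349 and 132 CPM in control segment 2, so both ligated libraries were below both controls. The log2 fold change was -3.11 ± 0.36 (edgeR adjusted p = 0.0047). It was -3.65 within batch 3017 and -2.34 within batch 3097. Without the control library of batch 3017 it was -2.38 (2.4e-05), and without the ligated library of batch 3017 the call was lost (-2.94, adjusted p = 0.069), as it was in a fit of those 4 libraries alone (-3.02, 0.13). In segment 3 Ovch2 had 44.6 and 36.3 CPM after ligation, against 84.0 and 63.7 CPM in controls. The groups did not overlap, but the log2 fold change of -0.86 ± 0.33 did not pass (95% interval -1.64 to -0.08, edgeR adjusted p = 0.27).

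**Figure D2:**
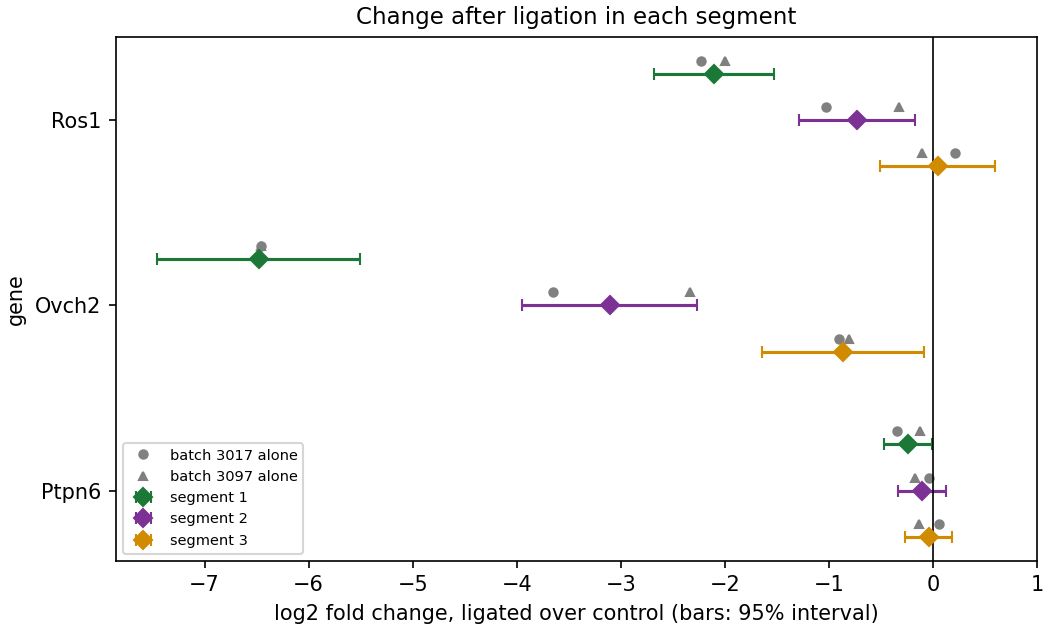
Log2 fold change, ligated over control, of Ros1, Ovch2 and Ptpn6 in segments 1, 2 and 3 (top to bottom within each gene). Diamonds are the fitted values with 95% intervals, and grey symbols the log2 ratios within batch 3017 (circles) and 3097 (triangles). The changes of Ros1 and Ovch2 are largest in segment 1, at -2.11 and -6.48, and the intervals of Ptpn6 stay within -0.47 to 0.18.

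The effect of ligation differed between segments for the receptor and for its output. For Ovch2 the log2 fold change in segment 1 minus that in segment 2 was -3.37 ± 0.48 (edgeR adjusted p = 0.0048), and minus that in segment 3 it was -5.62 ± 0.49 (4.7e-04). For Ros1 the difference from segment 3 was -2.15 ± 0.34 (0.003) and that from segment 2 was -1.38 ± 0.34 (0.028). Of all genes, 18.5% were called for the difference between segments 1 and 2, and 30.7% for that between segments 1 and 3. The Ros1 difference between segments 1 and 2 lost its call when any of 5 libraries was left out: those of control segment 1 (-1.49 and -1.27, adjusted p = 0.068 and 0.088, without batches 3017 and 3097), of ligated segment 2 (-1.35 and -1.43, 0.09 and 0.075), or that of ligated segment 1 in batch 3017 (-1.17, 0.096). Without the control library of segment 2 in batch 3017 the difference was -1.90 (8.7e-05) for Ros1 and -4.10 (2.5e-06) for Ovch2. Between segments 2 and 3 the Ros1 and Ovch2 differences were -0.77 ± 0.34 (0.51) and -2.24 ± 0.47 (0.37). There edgeR called 0 genes of 19213 (0%), with 1917 at an unadjusted p under 0.05, and DESeq2 called 151, with Ovch2 among them (-2.25, 3.3e-05). Without the control library of segment 2 in batch 3097, edgeR called 1124 genes and both members (Ros1 -1.17, 0.0047; Ovch2 -2.77, 4.8e-05).

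Along the control duct both genes were highest in segment 1. Ros1 was higher in control segment 1 than in control segment 2 by a log2 fold change of 1.24 ± 0.24 (edgeR adjusted p = 0.0049), in a comparison where 43.2% of genes were called, and by 1.74 (1.4e-05) or 0.85 (0.0019) without the segment 2 control of batch 3017 or 3097. It was higher than in control segment 3 by 1.56 ± 0.24 (0.0012; 51.2% of genes called). Ovch2 was higher in control segment 1 too, by 3.79 ± 0.36 over control segment 2 (2.9e-04) and by 5.44 ± 0.39 over control segment 3 (5.6e-05). Without the segment 2 control library of batch 3017 the Ovch2 value between segments 1 and 2 was 4.51 (2.3e-07), against 3.26 (3.3e-06) when the library of batch 3097 was left out. Between control segments 2 and 3, where 1.79% of genes were called, neither passed, at 0.32 ± 0.24 (0.51) for Ros1 and 1.65 ± 0.34 (0.061) for Ovch2. Without the segment 2 control of batch 3017 these values were -0.16 (0.7) and 0.93 (0.037), and without that of batch 3097 they were 0.73 (0.0078) and 2.18 (1.7e-05).

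Within ligated tissue no difference between segments passed the test for either gene. Ros1 averaged 164 ± 21.9, 182 ± 15.2 and 249 ± 21.3 CPM in ligated segments 1, 2 and 3 (SD, n = 2 each), and Ovch2 averaged 35.2 ± 0.425, 26.5 ± 1.19 and 40.4 ± 5.87 CPM. For Ros1, ligated segment 1 was lower than ligated segment 3 by -0.59 ± 0.24, which did not pass (edgeR adjusted p = 0.2; 5.8% of genes called). For Ovch2 the same difference was -0.18 ± 0.33 (95% interval -0.96 to 0.60, 0.8). Ligated segments 1 and 2 differed by -0.14 ± 0.24 for Ros1 and 0.42 ± 0.33 for Ovch2 (0.86 and 0.65; 1.3% of genes called). Ligated segments 2 and 3 differed by -0.45 ± 0.24 and -0.60 ± 0.33 (0.75 and 0.76), where edgeR called 0 genes (0%), 1344 had an unadjusted p under 0.05 and DESeq2 called 32. In a fit of those 4 libraries alone both of these last differences passed (0.0025 for Ros1 and 0.0015 for Ovch2).

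Ordered by mean, Ros1 was lowest in ligated segment 1, followed by ligated segment 2, control segment 3, ligated segment 3, control segment 2 and control segment 1. The libraries of ligated segments 1 and 2 overlapped, those of segment 3 overlapped with and without ligation, and the libraries of control segment 2 lay on both sides of the segment 3 libraries. Ligated segment 2 lay below control segment 3, and control segment 1 above control segment 2, without overlap. The order for Ovch2 was ligated segment 2, ligated segment 1, ligated segment 3, control segment 3, control segment 2 and control segment 1, with no overlap between neighbouring groups. Neighbours were tested only within a segment or a condition, which covers all those of Ovch2. Only control segment 1 over control segment 2 passed for Ovch2 (edgeR adjusted p = 2.9e-04). Ligated segments 2 and 1 (0.65) and ligated segments 1 and 3 (0.8) did not pass. Neither did ligated and control segment 3 (0.27), nor control segments 3 and 2 (0.061).

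The phosphatase varied little. Ptpn6 had 22.3 and 23.8 CPM in ligated segment 1, against 28.5 and 26.1 CPM in control segment 1. Both ligated libraries were lower, but the log2 fold change of -0.24 ± 0.10 did not pass (95% interval -0.47 to -0.01, edgeR adjusted p = 0.076). In segment 2 Ptpn6 had 25.1 and 21.4 CPM after ligation, against 25.8 and 24.1 CPM in controls, and the log2 fold change was -0.11 ± 0.10 (95% interval -0.33 to 0.12, 0.54). In segment 3 it had 23.3 and 21.9 CPM after ligation, against 22.4 and 24.1 CPM in controls (-0.04 ± 0.10, 95% interval -0.27 to 0.18, 0.87). Groups overlapped in segments 2 and 3. Along the control duct, segment 1 exceeded segment 3 by 0.23 ± 0.10 (0.084) and segment 2 by 0.13 ± 0.10 (0.33), and the effects of ligation did not differ between segments by a called amount (-0.13 ± 0.14, adjusted p = 0.56, between segments 1 and 2, and -0.20 ± 0.14, 0.33, between segments 1 and 3).

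Markers of leukocytes, cells known to be rich in PTPN6, were measured in the same libraries. Of 22 listed genes 20 passed the low-count filter, and in segment 1 after ligation 5 rose and 4 fell (median log2 fold change 0.13, against 0.03 over all genes). These 9 of 20 lie near the 48.7% of all genes called there. Their summed level was 961 to 1002 CPM in ligated segment 1, against 1172 to 1262 CPM in control segment 1, and 702 to 941 CPM in the other groups. The monocyte receptor gene Cd14 rose by 2.29 ± 0.20 (edgeR adjusted p = 3.8e-05) and the lysosomal macrophage gene Cd68 by 3.22 ± 0.51 (0.0031), while the myeloid kinase gene Fgr fell by 3.80 ± 0.40 (8.2e-05). These genes also varied along the control duct. In control segments 1, 2 and 3 Cd14 averaged 2.21, 6.88 and 9.65 CPM, Cd68 6.15, 31.1 and 54.6 CPM, and Fgr 5.73, 0.354 and 0.230 CPM. In ligated segment 1 they averaged 10.8, 53.8 and 0.404 CPM. Cd52, also known from epididymal epithelium, fell by 2.16 ± 0.56 (0.023), a call lost without any 1 of the 4 libraries of segment 1 (adjusted p = 0.076 to 0.13). The pan-leukocyte gene Ptprc averaged 6.91 CPM in ligated and 4.48 CPM in control segment 1 (0.60 ± 0.28, 0.1), and Csf1r, the macrophage growth factor receptor, 29.5 and 36.8 CPM (-0.32 ± 0.13, 0.066). The neutrophil gene S100a8 was at 0 in 10 of 12 libraries and the B cell gene Cd79a in 3. The part of leukocytes in the Ptpn6 level was not tested.

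Because the receptor and its output changed and the phosphatase did not pass, their proportions were compared per exonic length. The ratio of Ros1 to Ptpn6, each in RPKM (TMM-scaled CPM per kilobase of exon), was 2.40 and 2.72 in ligated segment 1, against 8.82 and 9.98 in control segment 1. In segment 2 it was 2.77 and 2.89 after ligation, against 5.50 and 3.21 in controls, and in segment 3 it was 4.08 and 3.84 after ligation, against 3.65 and 3.78 in controls. The receptor was thus the more abundant transcript per length in all 12 libraries. The ratio of Ovch2 to Ros1 was 0.936 and 0.787 in ligated segment 1, against 17.7 and 17.5 in control segment 1. Ovch2 was below Ros1 per length in all 6 ligated libraries and at or above it in all 6 control libraries, the closest being 1.01 in control segment 3.

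**Figure D3:**
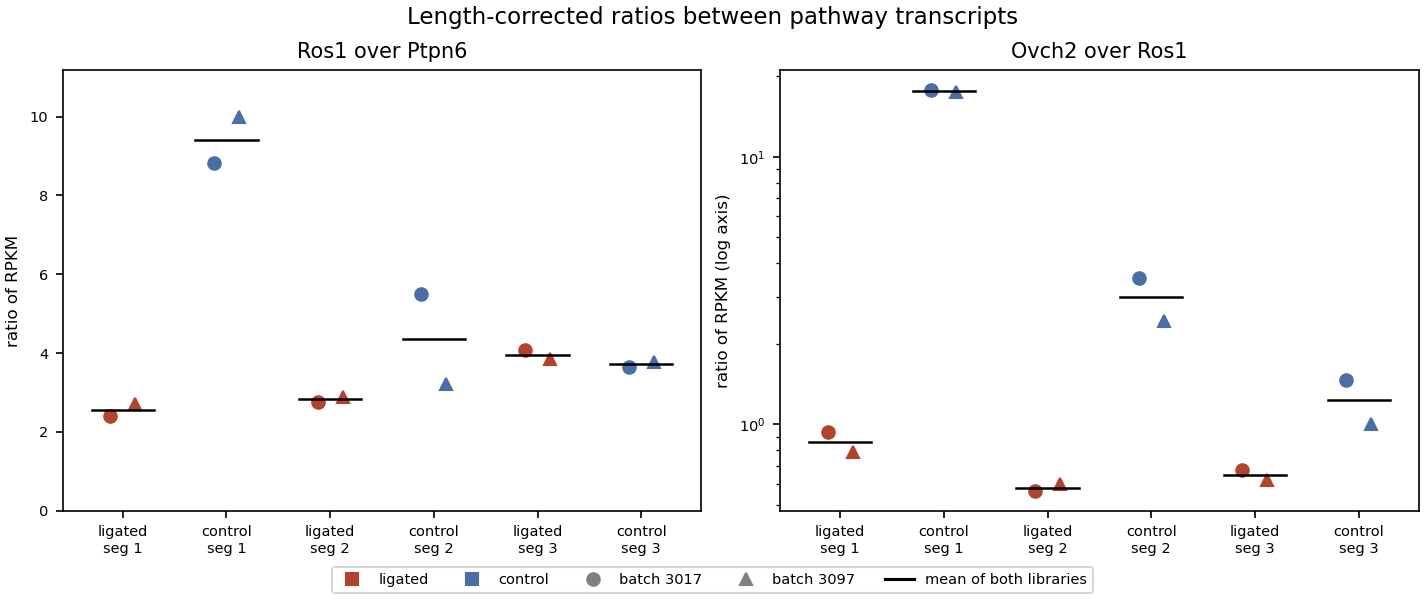
Ratio of Ros1 to Ptpn6 (linear axis) and of Ovch2 to Ros1 (log axis), both in RPKM, in each library, with circles for batch 3017, triangles for batch 3097 and lines for the mean. Control segment 1 stands above all other groups in both panels, at 8.82 and 9.98 on the left and at 17.7 and 17.5 on the right.

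The ligand was close to undetected. Nell2 had 7 and 6 counts in ligated segment 1, against 0 and 2 in control segment 1. It had 9 and 5 counts in ligated segment 2, against 3 and 1 in control segment 2, and 11 and 9 counts in ligated segment 3, against 1 and 5 in control segment 3. It was the 1 member that did not pass the low-count filter, and its highest level was 0.288 CPM. In each of the 6 pairs of libraries of the same segment and batch, the ligated library was higher, with a mean difference of 0.141 CPM. These pairs are given as a description, since segments may share mice. Over all libraries there were 47 counts in ligated and 12 in control tissue, a ratio of 3.43 per effective library size (exact 95% interval 1.79 to 7.11, counting error only). Without the filter no single segment passed (edgeR adjusted p = 0.15, 0.6 and 0.61 in segments 1, 2 and 3).

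Germ cell markers were measured in the same libraries. Their summed level over 20 genes was 50.2 to 58.0 CPM in ligated libraries, against 82.7 to 385 CPM in controls. Of 18 that passed the filter, 11 fell and 2 rose in segment 1, 15 fell and 0 rose in segment 2, and 14 fell and 0 rose in segment 3, where 24.4%, 7% and 1.41% of all genes were called lower. The sperm protamine genes Prm1 and Prm2 averaged 0.0490 and 0.128 CPM in ligated segment 1, against 1.37 and 3.24 CPM in control segment 1. In segment 2 they averaged 0.0746 and 0.138 CPM after ligation, against 18.2 and 57.9 CPM in controls. The sperm protein gene Adam2 averaged at most 0.0280 CPM in ligated groups and 0.0250 to 0.955 CPM in control groups. Akap4, a scaffold of the sperm tail, was at 0 in 5 of the 6 ligated libraries. Neuronal Tubb3, listed because NELL2 is also made by neurons, averaged at most 0.0379 CPM in any group. The source of the Nell2 counts was not tested.

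The paralog of the ligand, Nell1, was detected mainly in control segment 1. Nell1 had 1 count in each ligated library of segment 1, against 187 and 122 counts in control segment 1 (4.68 and 3.64 CPM), and 0 to 4 counts in each of the other 8 libraries. Control segment 1 thus stood alone, with a ratio of control to ligated of 165 (exact 95% interval 45.3 to 1370, counting error only; edgeR adjusted p = 1.4e-04). Gm1673 encodes NICOL, a small secreted protein that acts together with NELL2. It had 3.36 and 2.38 CPM in ligated segment 1, against 0.576 and 1.64 CPM in control segment 1, and rose by 1.37 ± 0.46 (0.037). The call was lost without the control library of batch 3017 (0.60, 0.18) or either ligated library (1.16, 0.18 without batch 3017 and 1.57, 0.074 without batch 3097).

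On the side of the output, Adam28, a metalloprotease gene of the epididymis, fell with Ovch2 in segment 1. It had 62.3 and 84.3 CPM in ligated segment 1, against 8193 and 7499 CPM in control segment 1 (-6.75 ± 1.36, edgeR adjusted p = 0.0093; 0.082 and 0.063 without the ligated libraries of batches 3017 and 3097). In segment 2 it had 8.66 and 7.89 CPM after ligation, against 490 and 59.1 CPM in controls, a log2 fold change of -5.06 ± 1.28 that did not pass (0.067). The control libraries there differed 8.28-fold, more than for any of the members. Adam3, the sperm protein on which OVCH2 acts, is transcribed in germ cells. It fell in segment 1 (-2.59 ± 0.70, 0.013), in segment 2 (-5.79 ± 0.65, 0.0016) and in segment 3 (-3.88 ± 0.55, 0.0081), and its mean in ligated tissue was at most 0.209 CPM. Without the batch 3097 library of control or of ligated segment 1 its call there was lost (0.062 and 0.064), as was the call in segment 3 without the control of batch 3017 (0.076).

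**Figure D4:**
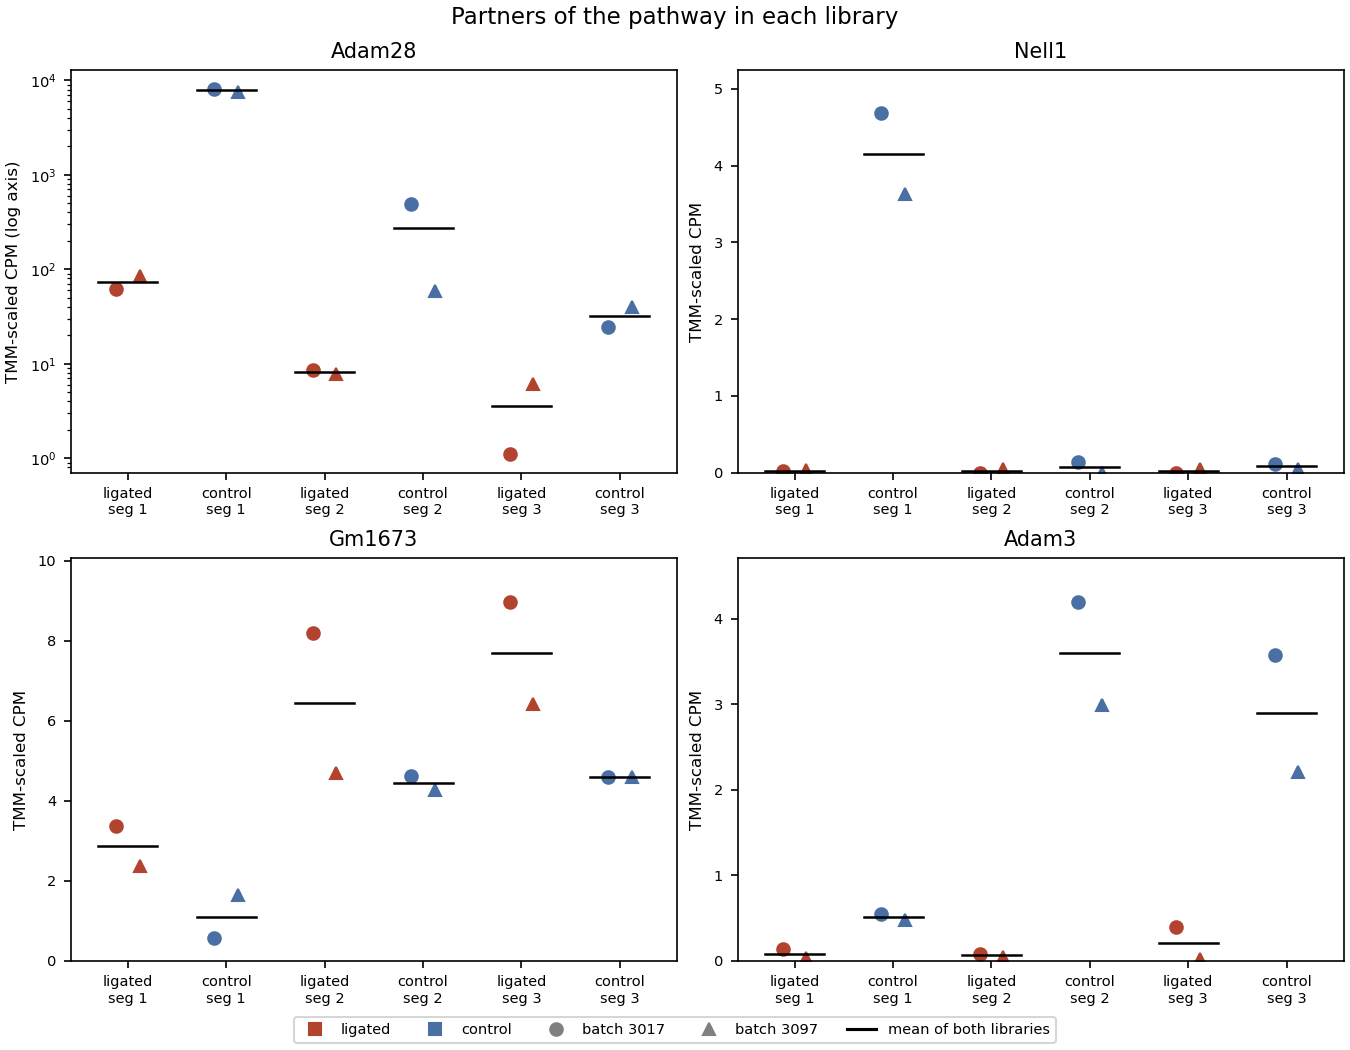
TMM-scaled CPM of Adam28 (log axis), Nell1, Gm1673 and Adam3 (linear axes from 0) in each library, with circles for batch 3017, triangles for batch 3097 and lines for the mean. Adam28 and Nell1 stand out in control segment 1, Gm1673 is lowest there, and Adam3 is highest in control segments 2 and 3.

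Of the 12 listed partners, 9 could be tested. In segment 1 after ligation 5 fell, among them Nell1, Adam28, Adam3 and Ltk, and 2 rose (Gm1673 and Frs2). The median log2 fold change was -0.54, and 48.7% of all genes were called there, 24.4% lower and 24.4% higher. Ltk, a receptor kinase gene, fell by 2.78 ± 0.76 (edgeR adjusted p = 0.019, 0.17 without either library of batch 3017 and 0.078 in DESeq2). Frs2, an adaptor of growth factor receptors, rose by 0.30 ± 0.09 in segment 1 (0.018) and 0.45 ± 0.09 in segment 2 (0.016). Each of these Frs2 calls was lost without either ligated library or 1 control library, that of batch 3097 in segment 1 and that of batch 3017 in segment 2 (adjusted p = 0.054 to 0.14). The count of 7 called partners was 3 without either ligated library of segment 1. Lgr4, a receptor needed for duct development, and the kinase gene Src were at -0.10 ± 0.09 (0.41) and 0.12 ± 0.07 (0.18). In segment 2 Adam3 fell and Frs2 rose, and in segment 3 Adam3 fell, where 9.86% and 1.72% of all genes were called.

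The relays that receptor tyrosine kinases such as ROS1 use were measured as a list of 31 genes. In segment 1 after ligation 13 fell, 6 rose and 12 did not pass, with a median log2 fold change of -0.17, against 0.03 over all genes, of which 24.4% were called lower and 24.4% higher. Plcg1, phospholipase C gamma, fell by 2.45 ± 0.29 (edgeR adjusted p = 5.0e-04), and Rasa1, which switches RAS off, fell by 1.98 ± 0.16 (3.3e-05). Stat3 fell by 0.66 ± 0.10 (7.1e-04). The RAF family gene Araf rose by 1.46 ± 0.18 (2.4e-04) and Pik3r1, the regulatory PI3-kinase subunit, by 0.87 ± 0.10 (1.5e-04). The ERK gene Mapk3 rose by 0.59 ± 0.09 (6.8e-04). The adaptor gene Grb2 was at -0.13 ± 0.08 (0.2), and Ptpn11, which encodes the relative of PTPN6 that passes signals on, at -0.17 ± 0.07 (0.089). In segment 2, where 7% of all genes were called lower and 2.87% higher, the called genes were Plcg1 (-1.55 ± 0.28, 0.021) and Stat3 (-0.42 ± 0.10, 0.035), both lower. That count was 11 without the control library of batch 3097 and 0 without any of the other 3 libraries. In segment 3, where edgeR called 1.72% of all genes, edgeR and DESeq2 both called 0 of the 31, with 5 at an unadjusted p under 0.05 in edgeR.

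Genes known to be induced by ERK were lower in segments 1 and 2. Of 17 tested, 17 fell in segment 1 (median -3.27), 11 in segment 2 (median -1.88) and 0 in segment 3 (median -0.84), and 0 rose, while 24.4%, 7% and 1.41% of all genes were called lower. Like the other lists here, this one was chosen with earlier results of these data known. Its counts are therefore a description. The transcription factor gene Etv4 averaged 0.208 CPM in ligated and 200 CPM in control segment 1 (-9.87 ± 0.82, edgeR adjusted p = 2.4e-04). Etv5 averaged 1.81 and 888 CPM there (-8.97 ± 1.10, 0.0013), and Dusp6, an ERK phosphatase, 5.41 and 300.3 CPM (-5.75 ± 0.49, 2.6e-04). In segment 2 Etv5 fell by 6.96 ± 1.04 (0.018) and Dusp4 by 3.05 ± 0.49 (0.017), each call being lost without the control of batch 3017 or either ligated library. The count of 11 in segment 2 was 6 without the control of batch 3017, 1 and 3 without the ligated libraries of batches 3017 and 3097, and 0 in a fit of those 4 libraries alone. In segment 3, 6 had an unadjusted p under 0.05 in edgeR and DESeq2 called 6. The segment 2 control of batch 3017 was 5.53 times as high in Etv5 as that of batch 3097.

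Other cytoplasmic tyrosine phosphatases were compared with Ptpn6. Of 16 tested, 9 fell and 0 rose in segment 1 (median -0.35), where 24.4% of all genes were called lower and 24.4% higher. In segment 2, 5 fell and 0 rose (median -0.21), where 7% of all genes were called lower and 2.87% higher. In segment 3, where edgeR called 1.72% of all genes, it called 0 of the 16, with 5 at an unadjusted p under 0.05. DESeq2 called 1 there. Ptpn5 and Ptpn3 had the largest falls in segment 1, -1.94 ± 0.17 (edgeR adjusted p = 6.7e-05) and -1.73 ± 0.12 (1.2e-05). They were also called in segment 2, at -0.84 ± 0.17 (0.021) and -0.70 ± 0.11 (0.0075), with Ptpn4, Ptpn9 and Ptpn12. Without either ligated library of segment 2 the Ptpn5 and Ptpn3 calls there were lost (adjusted p = 0.063 to 0.19), as was that of Ptpn5 without the control of batch 3017 (0.074). The count of 5 in segment 2 was 0 without either ligated library and 2 without the control of batch 3017.

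Epithelial markers gave a measure of how much duct epithelium the libraries held. Their summed level over 8 genes was 2899 to 3103 CPM in ligated segment 1, against 2385 to 2600 CPM in control segment 1. Epcam, an epithelial adhesion gene, averaged 406 and 443 CPM there (-0.12 ± 0.13, edgeR adjusted p = 0.47). Of the list 2 rose, Krt19 by 2.93 ± 0.18 (9.6e-06) and Cldn3 by 0.94 ± 0.15 (6.6e-04), and 1 fell. Of all genes, 48.7% were called in segment 1, 24.4% lower and 24.4% higher. In segment 2, where edgeR called 9.86% of all genes, it called 0 of the 8, with 5 at an unadjusted p under 0.05, and DESeq2 called 3. In segment 3, where edgeR called 1.72% of all genes, edgeR and DESeq2 both called 0. There 1 marker had an unadjusted p under 0.05 in edgeR. No epithelial marker was at 0 in any library.

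Markers of other cell types of the duct wall were also measured in segment 1, where 48.7% of all genes were called, 24.4% lower and 24.4% higher. The lists are short, so their counts are given as a description. Endothelial markers summed to 32.6 and 44.4 CPM in ligated segment 1, against 97.7 and 92.4 CPM in control segment 1, and 4 of 6 fell and 0 rose. Clear cell markers summed to 1059 and 971 CPM in ligated segment 1, against 281 and 366 CPM in control segment 1, and 4 of 6 rose and 1 fell. Of 10 markers of multiciliated cells, which line the efferent ducts, 8 rose and 0 fell, with sums of 209 and 184 CPM in ligated segment 1, against 104 and 102 CPM in control segment 1. Of 6 fibroblast markers 5 rose and 1 fell, with sums of 217 and 334 CPM in ligated segment 1, against 621 and 630 CPM in control segment 1. The fibroblast gene that fell was Pdgfra, which made up most of the control sum. It averaged 32.2 CPM in ligated and 519 CPM in control segment 1. Of 6 smooth muscle markers 5 rose and 1 fell, with sums of 442 and 562 CPM in ligated segment 1, against 3136 and 3189 CPM in control segment 1. The smooth muscle gene that fell was Actg2, an enteric actin gene, which averaged 11.5 CPM in ligated and 2864 CPM in control segment 1 (-7.96 ± 0.95, edgeR adjusted p = 0.0011). Of 5 basal cell markers 2 rose and 3 fell, and of 9 neural markers 3 rose and 2 fell. Only the neural counts lie near the shares of all genes called. The sums also varied along the control duct. In control segment 3 they were 22.0 and 21.4 CPM for endothelial and 985 and 1087 CPM for clear cell markers. There multiciliated markers summed to 173 and 145 CPM, fibroblast markers to 164 and 163 CPM and smooth muscle markers to 440 and 504 CPM. In control segments 1, 2 and 3 Pdgfra averaged 519, 136 and 26.2 CPM and Actg2 2864, 232 and 27.9 CPM. The part of these cell types in the Ros1 and Ovch2 levels was not tested.

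Likeness of pattern was measured over the 12 libraries by Pearson's r of log2(CPM + 0.5), with batch means removed, among 10439 other protein-coding genes of at least 5 CPM. These values are descriptions, since the libraries share groups. The genes most like Ros1 were Pnpla6 (r = 0.989), Tubgcp6 (0.988), Sec63 (0.988), Ss18 (0.986) and Tanc2 (0.986). Those most like Ovch2 were Slc33a1 (0.998), Sec23ip (0.995), Tmem164 (0.994), Numb (0.994) and Taf2 (0.993). Pearson's r does not measure the size of a change. Slc33a1 averaged 180 CPM in control and 84.2 CPM in ligated segment 1, where Ovch2 averaged 3141 and 35.2 CPM. Patterns of this kind were shared widely. The order of the 6 group means was the same as that of Ros1 in 45 genes and as that of Ovch2 in 170. For Ptpn6 the values were lower, with Apba3 (0.944), Trim7 (0.931), Ufsp1 (0.923), Cnnm4 (0.922) and L3mbtl2 (0.914). Ptpn6 itself passed no test and stayed between 21.4 and 28.5 CPM, so these values follow small differences between libraries. None is given for Nell2, whose libraries held at most 11 counts.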

How the data were processed

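Polyadenylated RNA of 12 pools was sequenced from directional libraries made from 500 ng of RNA, per the labels' protocols. The authors deposited whole-number read counts per gene, without normalization, in a table per batch; Trim Galore 0.6.0, cutadapt, FastQC, STAR 2.7.0e and GRCm38 are named in the submitters' processing notes. The sources used here do not give the counting tool or its strand setting. Columns name groups, so libraries are named by group and batch. Counts were analysed with edgeR 4.0.16 (limma 3.58.1, R 4.3.3): filterByExpr with a minimum count of 10 left 19213 genes, scaled by TMM. A robust quasi-likelihood fit with group and batch over 12 libraries gave two-sided tests with Benjamini-Hochberg adjustment over all genes, called under 0.05. The series' design states the batches, hence the block; between groups, same-batch deviations from group means had correlations of 0.0459 to 0.662. Replicates of each group differed by more than sampling noise (chi-square per degree of freedom 22.6 to 115.5). Each standard error is the fold change divided by the root of its F statistic. Within-batch log2 ratios use CPM plus 0.5. RPKM uses exonic lengths of GENCODE release 21, whose identifiers match all 55536 genes. The fit was tested on simulated data. No molecular identifiers are stated. The count floors and the exact intervals of Nell1 and Nell2 reflect counting error alone. The intervals of the fitted fold changes also take in the spread between libraries. The members and lists were chosen with earlier results of these data known. Named genes were the 4 members, a set of sentinels, the 2 largest called rises and falls of each list with at least 1 CPM, and the 5 genes most like each member; other genes, such as Ltk, Src and Ptpn9, and the Nell2 pairs were added after values were seen. Some genes of this rule are not reported here. Alternatives were no batch block, other scalings and filters, DESeq2 1.42.0, smaller fits and leaving out each library.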

Additional observations from a re-analysis of the deposited data

Results flagged for a closer look

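The effect of ligation on the receptor and on the protease differed between segments by a test of the difference itself. For Ros1 the log2 fold change in segment 1 differed by -1.38 from that in segment 2 and by -2.15 from that in segment 3. For Ovch2 these differences were -3.37 and -5.62. The Ros1 difference between segments 1 and 2 was less firm. Its call was lost with no low-count filter, in a fit of only the libraries compared, and without any of several single libraries. With a library left out it ranged from -1.90 to -1.01. Levels after ligation were 164 to 249 CPM for Ros1 and 26.5 to 40.4 CPM for Ovch2 as group means, while control levels ranged over 240 to 710 CPM and 73.9 to 3141 CPM.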

How the results depend on the processing

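Of 36 member results (3 genes in 12 comparisons), 11 were called, and 237 of 252 values under 7 alternatives kept their direction and call, as did 156 of 180 values with a library left out. With no replicate block each member kept its direction and call (Ros1 -2.11, Ovch2 -6.48 in segment 1), while 1162 genes in place of 1895 were called in segment 2 and the Frs2 calls were lost (0.11 and 0.089). DESeq2 added calls for Ros1 in segment 2 (-0.73, adjusted p = 0.013), for Ovch2 between control segments 2 and 3 (1.66, 5.7e-07) and for the Ovch2 difference between the effects in segments 2 and 3 (-2.25, 3.3e-05). A fit of only the libraries compared lost Ovch2 in segment 2 (-3.02, 0.13) and the Ros1 difference between segments 1 and 2 (-1.38, 0.072), which was also lost with no low-count filter (-1.38, 0.074). That smaller fit added Ovch2 in segment 3 (-0.86, 0.021) and, within ligated tissue, Ovch2 between segments 1 and 2 (0.40, 0.029), Ros1 between 1 and 3 (-0.60, 0.045), and Ros1 and Ovch2 between 2 and 3 (-0.45 and -0.60). Under library totals in place of TMM, the all-gene median was higher by 0.20, 0.13 and 0.032 in segments 1, 2 and 3. This scaling called 6505 genes higher and 3130 lower in segment 1 in place of 4684 and 4679, and 1598 and 1071 in segment 2 in place of 551 and 1344. It turned Ptpn6 positive in segment 2 (0.025), between ligated segments 1 and 2 (0.030, or 0.0072 with no filter) and between the effects in segments 2 and 3 (0.034), and in segment 1 Lgr4 (0.10), Ptpn11 (0.036), Grb2 (0.068) and Epcam (0.078), none of them called under TMM. With each library left out in turn, Ros1 ranged from -1.11 to -0.22 in segment 2, from -0.10 to 0.22 in segment 3, from -0.16 to 0.73 between control segments 2 and 3, and from -0.38 to 0.085 between ligated segments 1 and 2. Its difference between effects ranged from -1.90 to -1.01 for segments 1 and 2 and from -1.17 to -0.28 for segments 2 and 3. Ovch2 ranged from -3.63 to -2.38 in segment 2, from 0.93 to 2.18 between control segments 2 and 3, from -0.41 to 0.035 between ligated segments 1 and 3, and from -2.77 to -1.52 for the difference between segments 2 and 3. Ptpn6 ranged from -0.21 to 0.014 in segment 2, from -0.12 to 0.059 in segment 3, from -0.12 to 0.10, -0.055 to 0.12 and -0.071 to 0.16 between ligated segments 1 and 2, 1 and 3, and 2 and 3, and from -0.17 to 0.047 for the difference between segments 2 and 3. The causes of these shifts were not tested. With 2 pools a group, small changes and Nell2, at 0 to 11 counts a library, are the least certain.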
